A study of Homo sapiens with 12 samples.

Results

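The protein factors that start and extend translation were followed across 6 clones of PC9, a human lung adenocarcinoma cell line that depends on mutant EGFR. They were taken as every detected probe whose annotated symbol begins with EIF1 to EIF6, EEF1 or EEF2, without the EIF4EBP genes, the EIF2AK kinases and pseudogenes. Of 99 such probes for 59 genes on the bead arrays, 84 probes for 56 genes were detected, among 21912 detected probes and 12250 genes tested in all. A probe counted as detected when both arrays of at least 1 clone exceeded 2.33 times the noise of the array. The weakest member inside this limit was EIF3J-DT at 1.09 times the limit, and the strongest outside it was EIF5AL1 at 0.942 times. Detected probes were missing for EIF5AL1, EIF4E3 and EIF1AY. The rule by symbol also takes in a noncoding RNA, EIF3J-DT, which is transcribed away from EIF3J and is not a translation factor, and 5 enzymes that modify elongation factors.

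The labels call 5 clones (D6, E1, E2, E3, E6) tolerant of gefitinib, an inhibitor of the EGFR kinase, and call clone B7 sensitive. Each clone descends from 1 cell and was measured on 2 Illumina arrays. All 12 samples carry the same treatment text, 0.4 to 2 µM gefitinib for 14 days, so the labels do not say whether B7 had met the drug, and response and exposure cannot be told apart. The sensitive state is represented by 1 clone. Where all tolerant arrays of a gene are said to lie above or below B7, this is a description. The share of all genes with that pattern is not given here. No label says that the 2 arrays of a clone came from separate cultures, so p-values over arrays measure only the spread between those arrays, which may be technical. In such bulk samples fewer cells with a transcript and less transcript per cell cannot be told apart. All levels below are log2 normalized intensities, and levels of different probes are not compared.

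The arrays fitted an epithelial line. All 6 epithelial markers (EPCAM, CDH1, KRT7, KRT8, KRT18 and KRT19) were detected on all 12 arrays. The defining leukocyte markers PTPRC and CD3E and the neuronal markers SNAP25, SYT1 and RBFOX3 were detected on none, as were COL1A2, COL3A1, LUM and VWF. Some single markers of other cell types (CD14, LYZ, PECAM1, CDH5, COL1A1 and TUBB3) were detected on all 12, and DCN on 7. By type these were 2 of the 4 leukocyte, 2 of the 3 endothelial and 1 of the 4 neuronal markers with a probe, and 1 of the 5 fibroblast markers. The 75th percentile of the scanner signal ran from 80.1 to 118 intensity units on the tolerant arrays and from 130.0 to 132.8 on the B7 arrays. The part of this brightness in the differences below was not tested.

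Translation begins when eIF2, loaded with GTP and the initiator tRNA, joins the small ribosomal subunit together with eIF1, eIF1A, eIF5 and the large scaffold eIF3. The messenger is brought in by eIF4F, which consists of the cap-binding protein eIF4E, the scaffold eIF4G and the helicase eIF4A. eIF2B recharges eIF2 with GTP. During elongation eEF1A delivers aminoacyl tRNA, the eEF1B complex recharges eEF1A, eEF2 moves the ribosome along and eIF5A helps it through difficult stretches. Growth factor signals reach this machinery through mTOR and ERK.

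The upstream regions of 4 genes on which the results turn are given first. EIF4G1 and EIF5A2 were the members called between tolerant clones and B7, and EIF4A1 and EIF4A2 are closely related helicases whose differences had opposite signs, neither passing the test. Each line holds the 250 bases before the RefSeq transcript start on GRCh38.p14, 5′ to 3′, with each CG pair in capitals. For EIF4G1 the table lists 3 starts, and the first listed is shown.
EIF4G1 (chr3:184314356-184314605, plus strand): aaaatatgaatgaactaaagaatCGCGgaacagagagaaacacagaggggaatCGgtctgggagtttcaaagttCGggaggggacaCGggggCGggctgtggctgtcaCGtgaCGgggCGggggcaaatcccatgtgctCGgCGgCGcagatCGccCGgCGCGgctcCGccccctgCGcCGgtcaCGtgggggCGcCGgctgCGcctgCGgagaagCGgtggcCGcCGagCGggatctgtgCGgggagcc
EIF5A2 (chr3:170908638-170908887, minus strand): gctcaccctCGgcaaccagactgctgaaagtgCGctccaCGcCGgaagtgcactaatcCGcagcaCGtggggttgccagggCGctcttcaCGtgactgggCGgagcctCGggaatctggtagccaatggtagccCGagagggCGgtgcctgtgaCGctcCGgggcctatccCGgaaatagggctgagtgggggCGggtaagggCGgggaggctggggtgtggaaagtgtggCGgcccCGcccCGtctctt
EIF4A1 (chr17:7572575-7572824, plus strand): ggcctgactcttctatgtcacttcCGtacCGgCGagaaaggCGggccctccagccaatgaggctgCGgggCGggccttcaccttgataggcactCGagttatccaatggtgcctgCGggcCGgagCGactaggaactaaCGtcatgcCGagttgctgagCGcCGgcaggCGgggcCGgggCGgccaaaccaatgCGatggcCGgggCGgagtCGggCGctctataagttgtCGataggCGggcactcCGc
EIF4A2 (chr3:186783327-186783576, plus strand): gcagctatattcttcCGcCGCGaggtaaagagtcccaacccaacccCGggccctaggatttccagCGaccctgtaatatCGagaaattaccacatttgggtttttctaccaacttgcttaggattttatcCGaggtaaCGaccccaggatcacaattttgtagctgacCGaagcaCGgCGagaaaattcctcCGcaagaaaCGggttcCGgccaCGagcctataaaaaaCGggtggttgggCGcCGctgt
The regions held 29 CG pairs in EIF4G1, 20 in EIF5A2, 25 in EIF4A1 and 18 in EIF4A2, against a median of 11 over 27305 RefSeq promoters of the same length. The E-box CACGTG, which reads the same on both strands and is a known binding sequence of MYC, occurred 2 times each in EIF4G1 and EIF5A2 and in neither EIF4A gene. It was present in 11 of the 44 members with an entry and in 6.49% of all promoters, while the members' promoters were richer in CG pairs, with a median of 23. The motif TATAAA, searched on both strands, was found in EIF4A2 and in 11.1% of all promoters. A match describes the letters and is not a bound site.

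**Figure D1:**
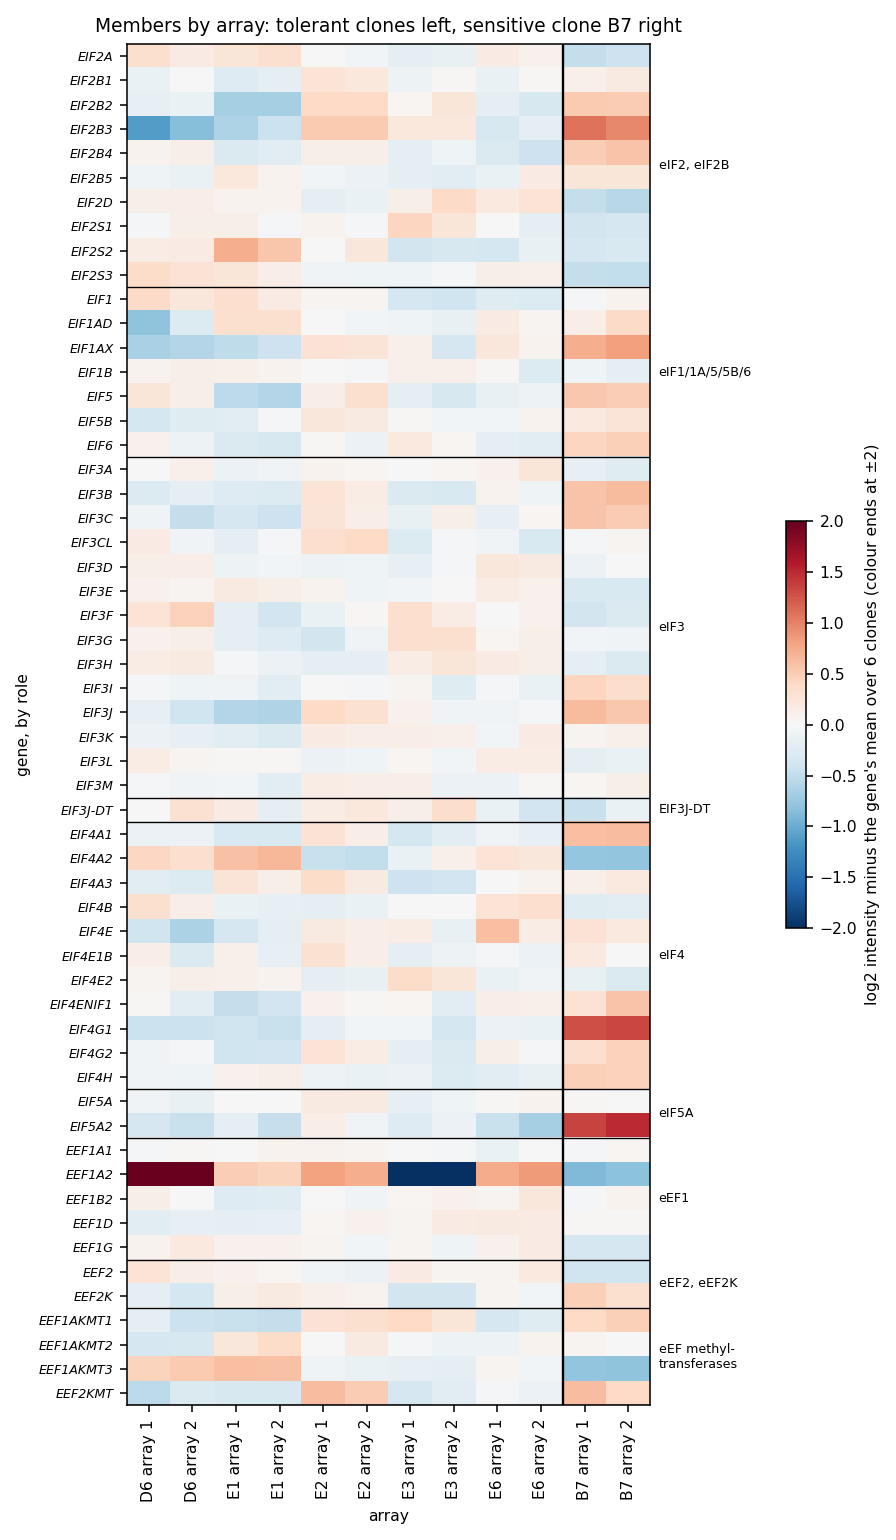
Each row is a member gene at its brightest detected probe and each column an array, with the 10 tolerant arrays left of the 2 B7 arrays. Colour gives the log2 intensity minus the gene's mean over the 6 clones. EEF1A2 is the row with the widest range, from 11.30 in D6 to 6.03 in E3, and EIF4G1 and EIF5A2 are high in B7 alone.

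Between the tolerant clones and B7, with the clone as the replicate, EIF4G1 and EIF5A2 were lower and no member was higher. Of the 56 members, 2 were lower and 0 higher (limma on clone means, Benjamini-Hochberg adjusted p under 0.05), which is 3.57% of them. Over all genes tested 2.83% were called, 1.4% higher and 1.44% lower, so the members' share lay near the background. Both called members differed by more than 2-fold. Of all genes, 2.72% were both called and at least 2-fold different, nearly all of the 2.83% called. At an unadjusted p under 0.05 there were 5 members higher and 11 lower, 16 of 56, beside 25.2% of all genes. The same 25.2% is the background for the counts at that threshold given by group below. The median difference was -0.06 over the members and 0.00 over all genes. The median SD between the tolerant clones was 0.20 log2 units for members and 0.24 for all genes, and between arrays of a clone it was 0.08 and 0.11. These differences were not tested.

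EIF4G1 encodes the scaffold of the cap-binding complex, on which eIF4E, eIF4A and eIF3 meet. Its level was 10.27 and 10.26 for D6, 10.30 and 10.25 for E1, 10.51 and 10.64 for E2, 10.64 and 10.36 for E3 and 10.58 and 10.56 for E6, against 11.98 and 12.04 in B7. All 10 tolerant arrays lay below both B7 arrays, by more than 1 log2 unit. The mean was 10.44 ± 0.16 in the tolerant clones (SD, n = 5) and 12.01 in B7. The difference of -1.58 ± 0.21 (SE, limma adjusted p = 0.0171) is a level 2.98-fold lower. Its other detected probe differed by -1.18, and the remaining 2 probes of the gene were detected on no array. The call was lost without clone E3 (limma adjusted p = 0.0586) and without E6 (0.0514), and the adjusted p ranged from 0.00805 to 0.0586 over 25 alternatives.

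EIF5A2 encodes the second form of eIF5A, the only protein family known to carry the modified lysine hypusine, and it was first noted in a chromosome region gained in ovarian cancer. Its level was 6.46 and 6.36 for D6, 6.61 and 6.34 for E1, 6.94 and 6.73 for E2, 6.54 and 6.69 for E3 and 6.36 and 6.14 for E6, against 8.16 and 8.29 in B7. Again no tolerant array reached B7. The mean was 6.52 ± 0.22 in the tolerant clones (SD, n = 5) and 8.23 in B7, a difference of -1.71 ± 0.25 (SE, limma adjusted p = 0.0213), or 3.27-fold lower. The scanner signal of this probe was 27.6 to 92.7 intensity units on the tolerant arrays, close to the detection limit of 20.1 to 24.1, and 314 and 362 on the B7 arrays. The size therefore depended on the background treatment, from -1.41 with a larger offset to -2.38 with no correction. A dimmer second probe exceeded the limit on the 2 B7 arrays alone. The call was lost without clone D6 (limma adjusted p = 0.0524), without E3 (0.0623) and without E6 (0.0557), within a range of 0.00547 to 0.0623 over 25 alternatives.

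The main form, EIF5A, averaged 11.57 ± 0.13 in the tolerant clones (SD, n = 5) and 11.59 in B7, a difference of -0.01 ± 0.20 (SE, limma adjusted p = 0.977). Whether the 2 genes differ in response was not tested.

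**Figure D2:**
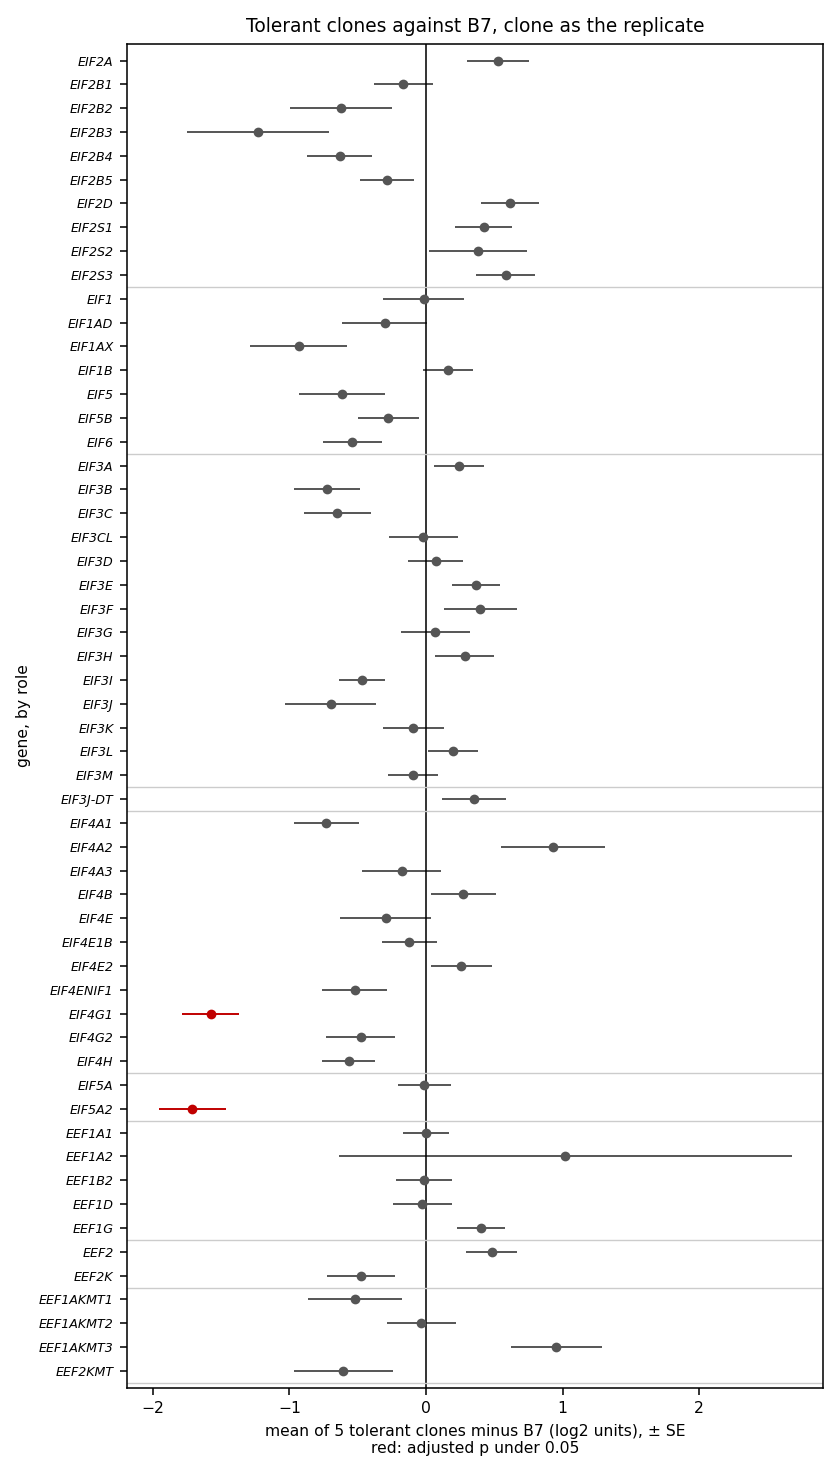
The horizontal axis gives the mean of the 5 tolerant clones minus B7 in log2 units with its SE, for each member by role. The 2 genes in red, EIF4G1 and EIF5A2, passed an adjusted p of 0.05. EEF1A2 has the widest error, 1.66 log2 units, and its tolerant clones span 5.28.

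In the eIF4 group, 1 of 11 genes (EIF4G1) was lower and 0 higher, with a group median of -0.29. EIF4A1, the main helicase of eIF4F, measured 13.86 and 13.86 for D6, 13.67 and 13.67 for E1, 14.26 and 14.11 for E2, 13.62 and 13.75 for E3 and 13.90 and 13.81 for E6, against 14.58 and 14.58 in B7. EIF4A2, its close paralog, measured 13.27 and 13.18 for D6, 13.44 and 13.52 for E1, 12.41 and 12.36 for E2, 12.73 and 12.95 for E3 and 13.13 and 13.08 for E6, against 12.09 and 12.07 in B7. No tolerant array of either gene overlapped B7, EIF4A1 being lower and EIF4A2 higher in tolerant clones, and E2 lay nearest to B7 in both. Other members that did not pass, among them EEF1G, EIF2S1 and EIF3E, were separated from B7 in the same way. The differences were -0.73 ± 0.24 for EIF4A1 (SE, limma adjusted p = 0.127) and 0.93 ± 0.38 for EIF4A2 (adjusted p = 0.189), so neither passed. A second EIF4A1 probe differed by -0.51. The signs held under each of the scalings tried, from -0.54 to -0.79 for EIF4A1 and from 0.61 to 0.94 for EIF4A2.

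EIF4E, the cap-binding protein, was dim. It read 6.71 and 6.47 for D6, 6.76 and 6.90 for E1, 7.28 and 7.24 for E2, 7.24 and 6.96 for E3 and 7.70 and 7.25 for E6, against 7.39 and 7.30 in B7. The groups overlapped, with D6 lowest and E6 highest among the tolerant clones. Its difference was -0.29 ± 0.33 (SE, limma adjusted p = 0.613). EIF4H, a cofactor of the helicase, differed by -0.56 (adjusted p = 0.139), EIF4ENIF1, which carries eIF4E into the nucleus, by -0.52 (adjusted p = 0.227) and EIF4G2, an eIF4G relative without a cap-binding partner, by -0.48 (adjusted p = 0.282). EIF4B, the helicase's other cofactor, differed by 0.27 and changed sign with median scaling over all probes.

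Within the eIF2 and eIF2B group, 0 of 10 genes passed, with 2 higher and 2 lower at an unadjusted p under 0.05 and a median of 0.11. The 5 subunits of the exchange factor eIF2B all had values below 0, from -1.23 to -0.16, and the 3 subunits of eIF2 values above 0, from 0.38 to 0.58. This grouping was made after the values were seen and was not tested. Clone by clone against B7, the exceptions were EIF2B1 in E2, at 0.10, and EIF2S2 in E3, at -0.02. EIF2B3, which encodes the gamma subunit of eIF2B, varied most: 6.83 and 7.10 for D6, 7.33 and 7.52 for E1, 8.47 and 8.47 for E2, 8.16 and 8.17 for E3 and 7.63 and 7.77 for E6, against 9.04 and 8.92 in B7. The tolerant clones spanned more than 1 log2 unit, all below B7, with D6 lowest and E2 highest. Its difference of -1.23 ± 0.52 did not pass (SE, limma adjusted p = 0.197). EIF2S1, the subunit phosphorylated under stress, averaged 8.53 ± 0.16 in the tolerant clones (SD, n = 5) and 8.10 in B7, a difference of 0.42 ± 0.21 (SE, limma adjusted p = 0.255). EIF2D and EIF2A, factors of other initiation routes, differed by 0.62 (adjusted p = 0.143) and 0.53 (adjusted p = 0.206). Median scaling over all probes moved the median difference of the 12250 genes to -0.20, and no gene of the eIF2 group changed sign with it.

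Among eIF1, eIF1A, eIF5, eIF5B, eIF6 and their relatives, 0 of 7 passed (0 higher and 2 lower at an unadjusted p under 0.05), with a median of -0.30. EIF1AX, the X-linked gene for eIF1A, had the widest range: 8.95 and 9.01 for D6, 9.09 and 9.18 for E1, 9.89 and 9.86 for E2, 9.69 and 9.27 for E3 and 9.82 and 9.67 for E6, against 10.33 and 10.42 in B7. Its difference was -0.93 ± 0.36 (SE, limma adjusted p = 0.169), and its other 2 detected probes, both dimmer, differed by 0.00 and -0.06. EIF6, which keeps free large subunits from joining, differed by -0.54 (adjusted p = 0.179) and EIF5, the GTPase activator for eIF2, by -0.61 (adjusted p = 0.264).

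Of the 14 eIF3 genes 0 passed (0 higher and 3 lower at an unadjusted p under 0.05), with differences between -0.72 and 0.40 around a median of 0.03. EIF3B, a core subunit, differed by -0.72 ± 0.24 (SE, limma adjusted p = 0.134), and its other 2 probes by -1.07 and -1.13. EIF3J, a loosely attached subunit, ranged most between clones, with 8.11 and 7.87 for D6, 7.67 and 7.66 for E1, 8.66 and 8.56 for E2, 8.34 and 8.19 for E3 and 8.19 and 8.22 for E6, against 8.89 and 8.80 in B7. Its difference was -0.70 ± 0.33 (SE, limma adjusted p = 0.241). EIF3C and EIF3CL are near-identical copies whose probes may share signal, and they differed by -0.65 and -0.02. The values of EIF3A, EIF3D, EIF3G and EIF3H, between 0.07 and 0.28, turned sign with median scaling over all probes (EIF3G also with median scaling over detected probes), and that of EIF3M with the mean over its probes.

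Without clone E2, 6 members passed instead of 2, beside 17.3% of all genes against 2.83%. EIF4A2 was higher by 1.09 ± 0.27 (SE, limma adjusted p = 0.0392). EIF4A1 (-0.81, adjusted p = 0.0346), EIF3B (-0.80, adjusted p = 0.0408) and EEF2KMT (-0.77, adjusted p = 0.0461) were lower beside EIF4G1 and EIF5A2. EEF2KMT encodes a methyltransferase that acts on eEF2. Without E3 or without E6, 0 members passed, beside 0.669% of all genes called without E3 and 0.702% without E6. An unadjusted p under 0.05 was reached by 12 and 9 of the 56 members. The share of all genes at that unadjusted threshold is not given for these settings. With all tolerant clones it was 25.2%, beside 16 of 56 members.

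**Figure D3:**
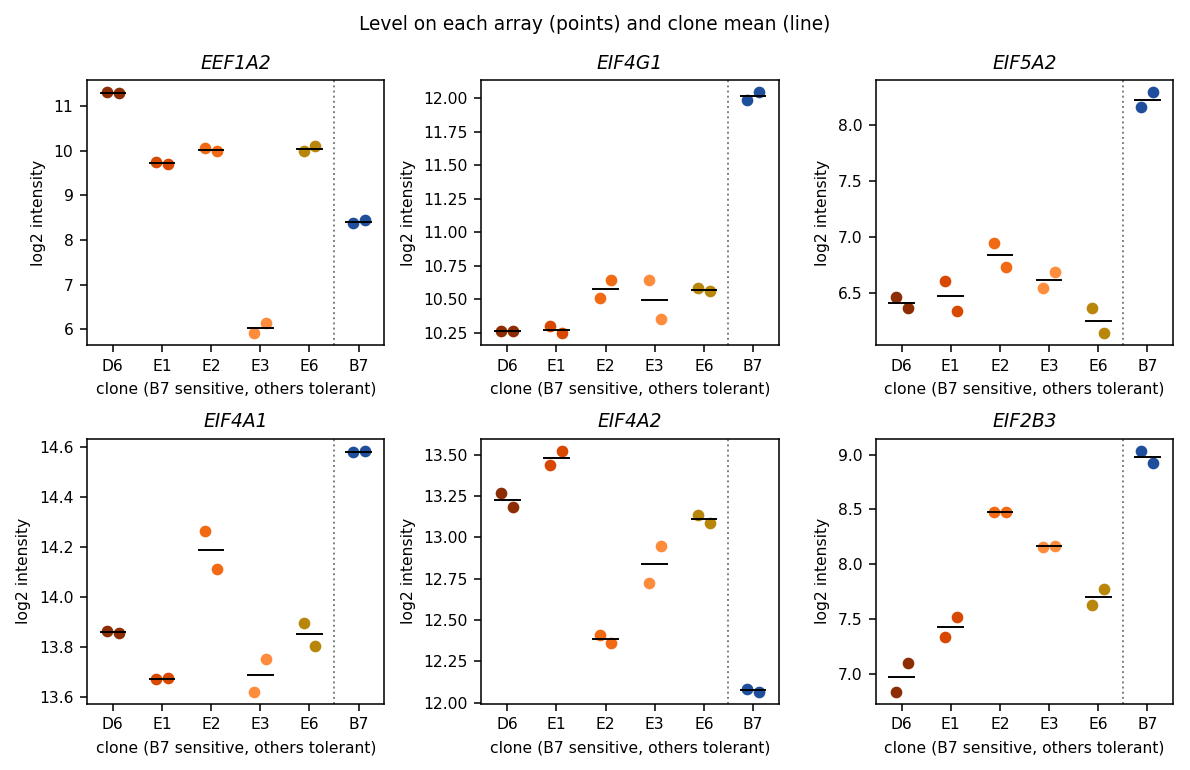
Each panel shows the log2 intensity of 1 gene on both arrays of each clone (points) and the clone mean (line), with the 5 tolerant clones left of B7. EEF1A2 is at 6.03 in E3, EIF4G1 and EIF5A2 are lower in every tolerant clone than in B7, and EIF4A1 and EIF4A2 lie on opposite sides of their B7 level. The vertical axes differ between panels and do not start at 0.

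EEF1A2 showed the widest spread of any member. It encodes the form of eEF1A found normally in neurons, heart and skeletal muscle, and it is also produced by some tumours, whereas EEF1A1 is made in nearly all cells. The only EEF1A2 probe read 11.31 and 11.29 for D6, 9.75 and 9.71 for E1, 10.06 and 9.98 for E2, 5.91 and 6.14 for E3 and 9.99 and 10.10 for E6, against 8.37 and 8.44 in B7. The scanner signal was 1855 and 1811 intensity units in D6, 18.7 and 30.0 in E3, and 376 and 409 in B7, and in E3 only 1 of the 2 arrays exceeded the detection limit. E3 thus lay below B7, and the other 4 tolerant clones lay above it.

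The order of EEF1A2 levels ran from D6 through E6, E2, E1 and B7 to E3. E6 and E2 differed by 0.02 log2 units, less than the SD of 0.08 between arrays of a clone, and every other step between neighbours was larger than that SD. E3 minus the mean of the other 4 tolerant clones was -4.25 log2 units, a level 19.0-fold lower, and E3 minus B7 was -2.38, or 5.21-fold lower. D6 exceeded B7 by 2.90 log2 units and E3 by 5.28. This loss was known when the genes were chosen and is given without a test. Its size is uncertain because E3 lies at the background: it was -3.68 with a larger offset, -5.64 without background correction and -5.75 in the authors' processed values, where signals under 20 are set to 20. Since E3 counts as a tolerant clone, the comparison of all 5 with B7 gave 1.02 ± 1.66 (SE, limma adjusted p = 0.739).

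The nearest tested genes to EEF1A2 on chromosome 20 did not share its low level in E3. In RefSeq order, the 10 nearest tested genes, 5 on each side, differed between E3 and the other tolerant clones by -0.35 to 0.40 log2 units. Over arrays 3 of them were lower and 2 higher, beside 31.7% of all genes in that comparison. PPDPF, the next tested gene on one side, lay 4 RefSeq genes away and differed by 0.01. It read 8.44 in E3 and 8.18 to 8.62 in the other tolerant clones. ARFGAP1, the next on the other side, lay 11 RefSeq genes away and differed by 0.23 (SE 0.06, limma adjusted p = 0.02 over arrays). The genes in between were not tested. The set reached 32 RefSeq genes away on the ARFGAP1 side and 9 on the PPDPF side. PTK6, a kinase gene 5 RefSeq genes away, had the lowest value, -0.35 (SE 0.10, adjusted p = 0.0238 over arrays).

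**Figure D4:**
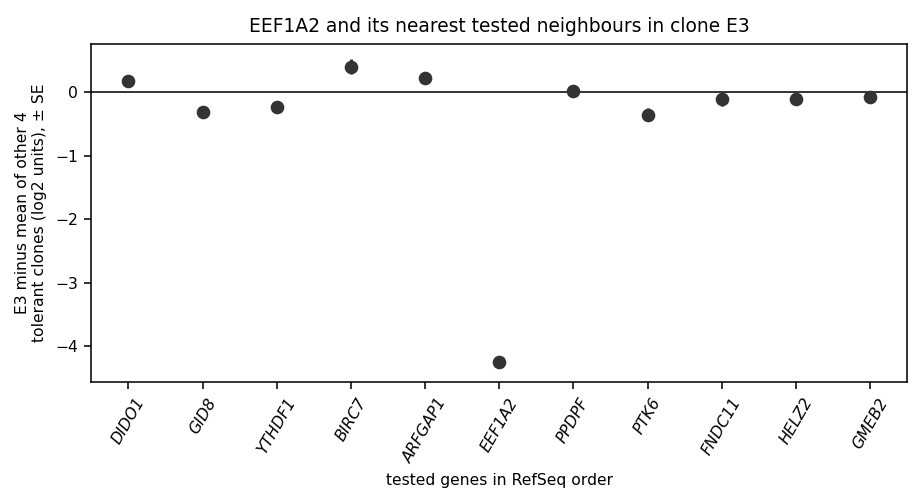
The vertical axis gives E3 minus the mean of the other 4 tolerant clones in log2 units with its SE, which is smaller than most symbols, and the horizontal axis the tested genes in RefSeq order. EEF1A2 stands at -4.25 and its 10 nearest tested genes between -0.35 and 0.40.

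The level of EEF1A1 was 15.74 and 15.78 for D6, 15.74 and 15.83 for E1, 15.83 and 15.81 for E2, 15.76 and 15.72 for E3 and 15.62 and 15.74 for E6, against 15.72 and 15.80 in B7. The groups overlapped, and the difference was 0.00 ± 0.17 (SE, limma adjusted p = 0.998). In E3 it was 0.02 below the other tolerant clones. Its 3 bright probes ranked 1, 2 and 3 among all annotated probes, where quantile normalization gives every array the same top values, so a shared shift could not be seen there. With median scaling over detected probes the difference was 0.29 and with median scaling over all probes 0.04, so it depended on the scaling. The remaining, far dimmer probe differed by 0.76. EEF1A1 has many processed copies in the genome whose transcripts its probes may also read.

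In the eEF1 group and the eEF2 pair no gene passed in either direction between tolerant clones and B7. This was 0 of 5 eEF1 genes, EEF1A1 and EEF1A2 included (0 at an unadjusted p under 0.05). In the eEF2 pair it was 0 of 2 (1 higher at an unadjusted p under 0.05). EEF2, the translocase, read 13.03 and 12.89 for D6, 12.85 and 12.80 for E1, 12.70 and 12.64 for E2, 12.92 and 12.81 for E3 and 12.82 and 12.96 for E6, against 12.36 and 12.36 in B7. All tolerant arrays lay above B7, with a difference of 0.48 ± 0.19 (SE, limma adjusted p = 0.175). EEF2K, the kinase that inhibits eEF2, read 8.59 and 8.41 for D6, 8.88 and 8.95 for E1, 8.87 and 8.84 for E2, 8.40 and 8.41 for E3 and 8.82 and 8.71 for E6, against 9.24 and 9.09 in B7. It lay below B7 on every tolerant array, with a difference of -0.48 ± 0.25 (adjusted p = 0.273). In the eEF1B complex, EEF1G differed by 0.40 (adjusted p = 0.207), while EEF1B2 and EEF1D differed by -0.01 and -0.03, signs that turned with median scaling over detected probes for EEF1B2 and with the mean over probes for EEF1D.

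Of the 4 methyltransferases measured 0 passed (1 higher at an unadjusted p under 0.05). EEF1AKMT3, which methylates eEF1A, read 10.27 and 10.34 for D6, 10.41 and 10.39 for E1, 9.74 and 9.68 for E2, 9.65 and 9.63 for E3 and 9.86 and 9.77 for E6, against 9.03 and 9.01 in B7. No tolerant array overlapped B7, and D6 and E1 were highest. The difference was 0.96 ± 0.34 (SE, limma adjusted p = 0.147).

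Every tolerant clone was compared with B7 on the level of arrays as well. These 5 comparisons share the B7 arrays and test only the spread between arrays. In D6 19 members were higher and 27 lower (limma adjusted p under 0.05), together 82.1%, beside 64.3% of all genes (32.0% higher, 32.4% lower). E1 had 15 members higher and 25 lower, or 71.4%, beside 65.5% of all genes (32.4% higher, 33.1% lower). E2 had 14 higher and 14 lower, 28 of 56, beside 47.1% (24.4% higher, 22.7% lower). E3 had 16 higher and 23 lower, or 69.6%, beside 59.6% (29.5% higher, 30.0% lower), and E6 16 higher and 20 lower, or 64.3%, beside 61.3% (30.1% higher, 31.2% lower). With a difference of at least 2-fold, 7 members were called in D6, beside 19.4% of all genes, 10 in E1 (22.1%), 3 in E2 (7.0%), 3 in E3 (15.4%) and 5 in E6 (16.6%). The median difference of the members was -0.19 in D6, -0.12 in E1, 0.05 in E2, -0.15 in E3 and -0.09 in E6, against medians of all genes within 0.01 of 0. This split, too, depended on the scaling. With median scaling over all probes, 5 members were higher and 36 lower in D6, beside 2022 and 6264 of all genes (their median -0.33). E1 had 6 higher and 35 lower, beside 2694 and 5622 (-0.23), and E2 6 and 19, beside 2182 and 3729 (-0.09). E3 had 9 and 29, beside 2449 and 5000 (-0.17), and E6 7 and 30, beside 2438 and 5399 (-0.21). In each clone more genes were thus called lower than higher, among all genes as among the members.

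EIF4G1 and EIF5A2 were among the 2-fold members in each of these comparisons. EIF4G1 differed from B7 by -1.75 in D6, -1.74 in E1, -1.44 in E2, -1.51 in E3 and -1.44 in E6 (SE 0.10 each, limma adjusted p at most 1.2e-06). EIF5A2 differed by -1.82, -1.75, -1.39, -1.61 and -1.98 (SE 0.12 each, adjusted p at most 7.9e-06). For EIF2B3 the values were -2.01 in D6, -1.55 in E1, -0.50 in E2, -0.81 in E3 and -1.28 in E6. EIF4A2 differed by 1.15 in D6, 1.40 in E1, 0.31 in E2, 0.76 in E3 and 1.03 in E6, with E2 lowest.

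Set against the other 4 tolerant clones, most members differed by small amounts. Over arrays, D6 had 10 members higher and 11 lower (37.5%), beside 38.0% of all genes (18.2% higher, 19.8% lower). E1 had 12 higher and 21 lower (58.9%), beside 46.3% (24.0% higher, 22.3% lower). E2 had 22 higher and 10 lower (57.1%), beside 53.2% (26.4% higher, 26.8% lower). E3 had 8 higher and 11 lower (33.9%), beside 31.7% (15.5% higher, 16.3% lower), and E6 6 higher and 7 lower (23.2%), beside 32.9% (16.5% higher, 16.4% lower). Of the 11 lower in E3, 1 is EEF1A2, whose loss there was part of the choice of genes and counts as no test. Of the 7 lower in E6, 1 is EIF3J-DT, whose probe was detected on neither E6 array. Apart from EEF1A2, 0 members differed by 2-fold or more with an adjusted p under 0.05 in any of the 5 comparisons, while 2.6% of all genes passed in D6, 2.7% in E1, 6.68% in E2, 1.36% in E3 and 1.54% in E6. The EEF1A2 values of the other clones in these comparisons carry the low E3 level in their mean. Set against the other tolerant clones without E3, EEF1A2 differed by 1.37 in D6, -0.73 in E1, -0.33 in E2 and -0.30 in E6, as a description.

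Against the other tolerant clones, the split into higher and lower members depended on the scaling, more in some clones than in others. With median scaling over all probes, D6 had 1 member higher and 26 lower, beside 912 and 4986 of all genes (their median -0.18). E1 had 7 and 24, beside 2327 and 2946 (-0.04), and E2 34 and 1, beside 4758 and 1988 (0.14). E3 had 13 and 7, beside 2373 and 1356 (0.06), and E6 5 and 5, beside 1788 and 1627 (0.01). With median scaling over detected probes the split was 8 and 16 in D6 (2105 and 2707 of all genes) and 12 and 23 in E1 (2956 and 2645). It was 23 and 6 in E2 (3373 and 3412), 11 and 7 in E3 (2022 and 1956) and 6 and 8 in E6 (1918 and 2021). In the authors' values it was 6 and 4 in E6 (1807 and 1447), and in the other 4 clones the larger side stayed the same.

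EIF2B3 was lower in D6, at -0.98 ± 0.08 (SE, limma adjusted p = 1.0e-05), and higher in E2 by 0.91 (adjusted p = 7.3e-06) and in E3 by 0.52 (adjusted p = 0.00117). In E1 EIF2B2, the beta subunit of eIF2B, was lower, at -0.70 (adjusted p = 2.6e-05), and EIF2S2, the beta subunit of eIF2, higher, at 0.72 (adjusted p = 6.3e-05).

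EIF2B2 read 10.05 and 10.08 for D6, 9.54 and 9.54 for E1, 10.61 and 10.60 for E2, 10.24 and 10.45 for E3 and 10.03 and 9.88 for E6, against 10.73 and 10.71 in B7. E1 lay below all other clones. EIF2S2 read 7.29 and 7.31 for D6, 7.88 and 7.70 for E1, 7.13 and 7.37 for E2, 6.78 and 6.83 for E3 and 6.80 and 6.99 for E6, against 6.81 and 6.85 in B7, with E1 above all others. In E3 EIF2S2 was lower than in the other tolerant clones, at -0.50 (limma adjusted p = 0.0013). EIF4A2 was lower in E2, at -0.78 (adjusted p = 5.9e-06). With EEF1A2 left aside, EEF1AKMT3 was the highest called member in D6, at 0.41 (adjusted p = 0.000339). In E6 EIF4E was higher by 0.53 (adjusted p = 0.00642), on a probe whose 2 E6 arrays read 7.70 and 7.25. The lowest called member in E6 was EIF3J-DT, at -0.40 (adjusted p = 0.0334), which was detected on 5 of 12 arrays and so lies at the limit of measurement. Its probe was kept only because both E2 arrays exceeded the limit, at 24.6 and 28.4 intensity units. Neither E6 array did, at 11.4 and 3.21. This call therefore rests on a filter passed through another clone and counts as no test.

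Other genes of translation and its control were taken from 5 further lists, and none passed between the tolerant clones and B7. Of their 48 genes (binding proteins and kinases, poly(A)-binding proteins, termination and recycling, hypusine and diphthamide enzymes, and mitochondrial factors) 43 were measured. In limma 0 were higher and 0 lower, and the median difference was -0.18. At an unadjusted p under 0.05 there were 1 higher and 7 lower, 8 of 43, beside 25.2% of all genes. By list the medians were -0.01 for binding proteins and kinases, -0.22 for poly(A)-binding proteins, -0.44 for termination and recycling, -0.42 for hypusine and diphthamide enzymes and 0.01 for mitochondrial factors. PDCD4, which inhibits the eIF4A helicase, differed by 0.97 ± 0.22 (SE, adjusted p = 0.0651), and RPTOR, a subunit of the mTOR complex, by -0.88 ± 0.19 (adjusted p = 0.0642), its probe being detected on 7 arrays. MTOR itself differed by -0.79 (adjusted p = 0.15) and ABCE1, the ribosome recycling factor, by -0.96 (adjusted p = 0.184). EIF4EBP1, the binding protein that holds eIF4E back, differed by -0.65 ± 0.46 (adjusted p = 0.409). DHPS and DOHH, which make hypusine on eIF5A, differed by 0.48 (adjusted p = 0.266) and -0.81 (adjusted p = 0.108).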

How the data were processed

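RNA of 6 PC9 clones was measured on 12 Illumina bead arrays. The deposited scanner values are linear signal intensity, per the file headers not normalized, with values below 0 that show a background subtraction, and the 12 columns for detection p-values hold 0 filled cells. The authors' processed values are intensity normalized by a method not given in the sources used here, with a floor of 20. From the scanner values, normexp (saddle, offset 16), quantile normalization and log2 were applied with limma 3.58.1 in R 4.3.3. Array noise, taken as the root mean square over values below 0, was 8.63 to 10.3 intensity units. Of 47229 probes 21912 were kept, 30112 had 1 gene, 8 several and 17109 none. The brightest kept probe stood for its gene, and 17 members had several detected probes, of which 3 (EEF1B2, EEF1D and EIF3M) had values of both signs.

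The clone was the replicate between tolerant clones and B7 (limma lmFit and eBayes on 6 clone means, B7 being alone and taken to vary as the tolerant clones do). All p-values are 2-sided and adjusted by Benjamini-Hochberg over 12250 genes, called under 0.05. Contrasts of single clones were fitted on all 12 arrays. The models were tested on simulated data. The members and lists were chosen with earlier results of these data known. Named genes are EEF1A2, EEF1A1, members called between clones, the highest and lowest called member of each clone, the member of each role with the widest range between clones, and EIF4E, EIF4G1, EIF4A1, EIF2S1, EIF5A, EEF2 and EEF2K. Others were named after their values were seen: EIF4A2, the eIF2B subunits as a group, EIF3B, further members given with their adjusted p, and the genes of the 5 other lists. Alternatives were other background treatments, scalings, filters and probe summaries, an intensity trend, a minimum difference, the replicate number as a block, and leaving out each array or tolerant clone. Median scaling over all probes was added after seeing the data. No protein sequences were used here. The number of arrays limits the precision.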

Additional observations from a re-analysis of the deposited data

How the results depend on the processing

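EIF4G1 and EIF5A2 kept their direction in all 25 alternatives and were called in 23 and 22 of them. The count of members called between clones was 2 in each setting that left out 1 array and in the 8 settings that left out nothing. Leaving out 1 tolerant clone gave 0 to 6: 1 without D6, 2 without E1, 6 without E2 and 0 without E3 or E6. The same-numbered arrays do not pair: the 15 correlations of their deviations between clones ran from -0.02 to 0.05, and with the replicate number as a block the counts against B7 were 45 in D6, 39 in E1, 28 in E2, 39 in E3 and 36 in E6, so the block changed no count by over 1.5 times. Leaving out 1 array gave 17 to 34 calls for E1 against the other tolerant clones, 20 to 33 for E2, 12 to 20 for E3, 5 to 15 for E6 and 14 to 22 for D6. Against B7 it gave 16 to 31 for E2, 40 to 47 for D6, 33 to 40 for E1, 32 to 40 for E3 and 32 to 37 for E6. The counts that moved by over 1.5 times were those of E1 without either E1 array (17 and 18), E2 without its array 1 (20 against tolerant clones, 16 against B7), E2 against B7 without B7 array 1 (18) or 2 (17), E3 without its array 1 (12) and E6 without its array 2 (5). Each of these fits left the clone in question, or B7, with 1 array, and the cause of the moves was not tested. A minimum of 1 log2 unit left 1, 0, 0, 1 and 0 members for D6, E1, E2, E3 and E6 against the other tolerant clones, and 7, 10, 3, 3 and 5 against B7. With no filter on dim probes E6 had 8 in place of 13, and the cause was not tested. For the settings without 1 array, with the block or without the filter, the share of all genes called is not given here. The member counts there have no background beside them. The EEF1A2 difference in E3 was -5.64 without background correction, -3.68 with an offset of 50, -5.75 in the authors' values, -4.15 with median scaling over all probes and -4.37 to -4.13 with 1 array left out. Signal near the background limits the size of the differences of EEF1A2 in E3 and of EIF5A2.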
